A study of Mus musculus with 30 samples.

Results

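The 9 genes *Ifngr1*, *Ifngr2*, *Il4ra*, *Il10ra*, *Il10rb*, *Il6ra*, *Il6st*, *Tgfbr1* and *Tgfbr2* encode receptor chains for cytokines that polarize monocytes and macrophages. They were chosen by name, without a rule on their values, but with earlier results of these data known. The choice was from 45317 gene symbols in the count tables, and all 9 passed the filter on low counts. RNA was sequenced from 8 sorted populations of mice carrying GL261 glioma, a syngeneic mouse glioma line whose membranes were marked with palmitoylated GFP. The mice were C57BL6.CCR2RFP/WT, aged 12 to 18 weeks, and thus carried a red reporter knocked in at 1 copy of *Ccr2*, and all of them bore tumours, so no group was tumour-free. The blood gave Ly6Chigh monocytes and Ly6Clow monocytes (3 mice each). The brain gave glioma monocytes (Ly6C high, 3 mice), CCR2high macrophages (4 mice) and CCR2low macrophages (4 mice), each sorted further into GFPpos cells, which had taken up tumour membrane, and GFPneg cells, which had not. The sorts of 4 mice, numbered 22, 23, 24 and 26 after the sample titles, gave 28 replicates, 6 of blood and 22 of brain. Mouse 26 had no blood replicate and mouse 23 had no glioma monocytes.

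Interferon gamma drives the classical, inflammatory activation of macrophages, while IL4 drives the alternative state and IL10 and TGF-beta restrain inflammation. Each of these cytokines binds 1 receptor chain first and then recruits a partner. The complex signals through JAK kinases and STAT factors, or, for TGF-beta, through SMAD factors. IL6 uses the same scheme, and its signal chain Il6st is shared with other cytokines of its family.

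The replicates held 1553616 to 5689644 counts on genes (median 2140229.5). Levels are given as CPM, the count set against the total of its library after scaling by library composition. Markers of monocytes and macrophages (*Ptprc*, *Itgam*, *Csf1r*, *Lyz2*, *Cd68* and *Fcgr1*) summed to between 8496 and 40593 CPM, and none was at 0 in every replicate of any population. *Ly6c2*, which encodes the Ly6C antigen of the gates, stood at 1176 ± 184 CPM (SD, n = 3) in Ly6Chigh and 123 ± 131 CPM (SD, n = 3) in Ly6Clow monocytes, and *Ccr2* at 243 ± 80.4 CPM (SD, n = 4) in GFPneg CCR2high and 72.2 ± 34.2 CPM (SD, n = 4) in GFPneg CCR2low macrophages. Both means ran in the direction of the labels, but between these macrophages edgeR called no gene at adjusted p under 0.05 (0 of 11566 tested). Brain microglia were gated away by their CD45 and CD11b levels, yet all 8 microglial markers were higher in each of the 6 brain populations than in Ly6Chigh monocytes. Their summed level was 145 to 285 CPM in blood replicates and 1769 to 9482 CPM in brain replicates. *Sall1* and *Siglech* were at 0 in every Ly6Chigh replicate, and no marker was at 0 in every replicate of any brain population. Of 11 genes that respond to tissue dissociation, 6 to 9 were higher, with summed levels of 1343 to 2337 CPM in blood and 5321 to 22141 CPM in brain. The effects of tissue, of microglial RNA and of the longer preparation of brain tissue cannot be told apart in a comparison of brain with blood. In bulk RNA, fewer cells of a type and less RNA per cell cannot be told apart either.

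The 250 bases before the RefSeq start site (GRCm38.p6) are printed for both chains of the interferon gamma receptor and of the IL6 receptor. They run 5′ to 3′ on the strand of the gene. These chains form 1 receptor but differed in how many of 28 pairs of populations were called without mouse in the model. *Ifngr1* was called in 12 and *Ifngr2* in 1, *Il6ra* in 7 and *Il6st* in 0. All 4 were lower in every brain population than in Ly6Chigh monocytes of the same mouse. The window of *Ifngr1* is chr10:19591699-19591948 (plus strand), that of *Ifngr2* chr16:91546809-91547058 (plus strand), that of *Il6ra* chr3:89913197-89913446 (minus strand) and that of *Il6st* chr13:112463820-112464069 (plus strand). Capitals mark matches to 6 motifs searched on both strands.
Ifngr1: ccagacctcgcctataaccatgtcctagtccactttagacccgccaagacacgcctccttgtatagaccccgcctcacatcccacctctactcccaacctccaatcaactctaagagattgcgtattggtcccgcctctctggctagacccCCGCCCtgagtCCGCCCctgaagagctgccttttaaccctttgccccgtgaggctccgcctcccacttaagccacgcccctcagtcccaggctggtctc
Ifngr2: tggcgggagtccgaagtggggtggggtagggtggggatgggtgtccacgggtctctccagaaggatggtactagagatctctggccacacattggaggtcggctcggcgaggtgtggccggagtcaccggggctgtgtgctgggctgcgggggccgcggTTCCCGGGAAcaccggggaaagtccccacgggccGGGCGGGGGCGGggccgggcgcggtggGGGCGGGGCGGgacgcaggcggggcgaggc
Il6ra: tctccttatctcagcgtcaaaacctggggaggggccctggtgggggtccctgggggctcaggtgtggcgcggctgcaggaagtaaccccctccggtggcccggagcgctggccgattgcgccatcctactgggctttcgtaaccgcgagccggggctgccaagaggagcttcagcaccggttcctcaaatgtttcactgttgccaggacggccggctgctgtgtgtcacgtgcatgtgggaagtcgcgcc
Il6st: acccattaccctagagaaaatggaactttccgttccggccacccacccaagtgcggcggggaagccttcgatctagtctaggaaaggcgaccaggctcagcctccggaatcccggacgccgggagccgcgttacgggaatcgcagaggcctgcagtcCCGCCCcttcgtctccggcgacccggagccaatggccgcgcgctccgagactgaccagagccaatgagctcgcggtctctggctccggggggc
The motifs were the interferon-gamma-activated site TTCNNNGAA, the STAT6 site (TTC and GAA with 4 bases between them), the SMAD site GTCTAGAC, the PU.1 site GAGGAAGT, the SP1 site GGGCGG and the TATA box TATAAA. *Ifngr1* held 2 SP1 matches and no other. *Ifngr2* held 4 SP1 matches, some of which overlap, and 1 STAT6 match, TTCCCGGGAA. *Il6st* held 1 SP1 match and *Il6ra* held none of the 6. Of all 32851 promoters in the table, 32.7% held an SP1 match, 5.85% a STAT6 match, 7.02% an interferon-gamma-activated site, 0.167% a SMAD site, 2.44% a PU.1 site and 12.4% a TATA box. GC content was 59.2% in *Ifngr1*, 74% in *Ifngr2*, 65.2% in *Il6ra* and 66% in *Il6st*, above the 52.4% median of all promoters. A match describes letters in this window and is not evidence of binding. Promoters of 7 of the 9 genes were in the table, and *Il10ra* and *Il10rb* were not matched.

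**Figure D1:**
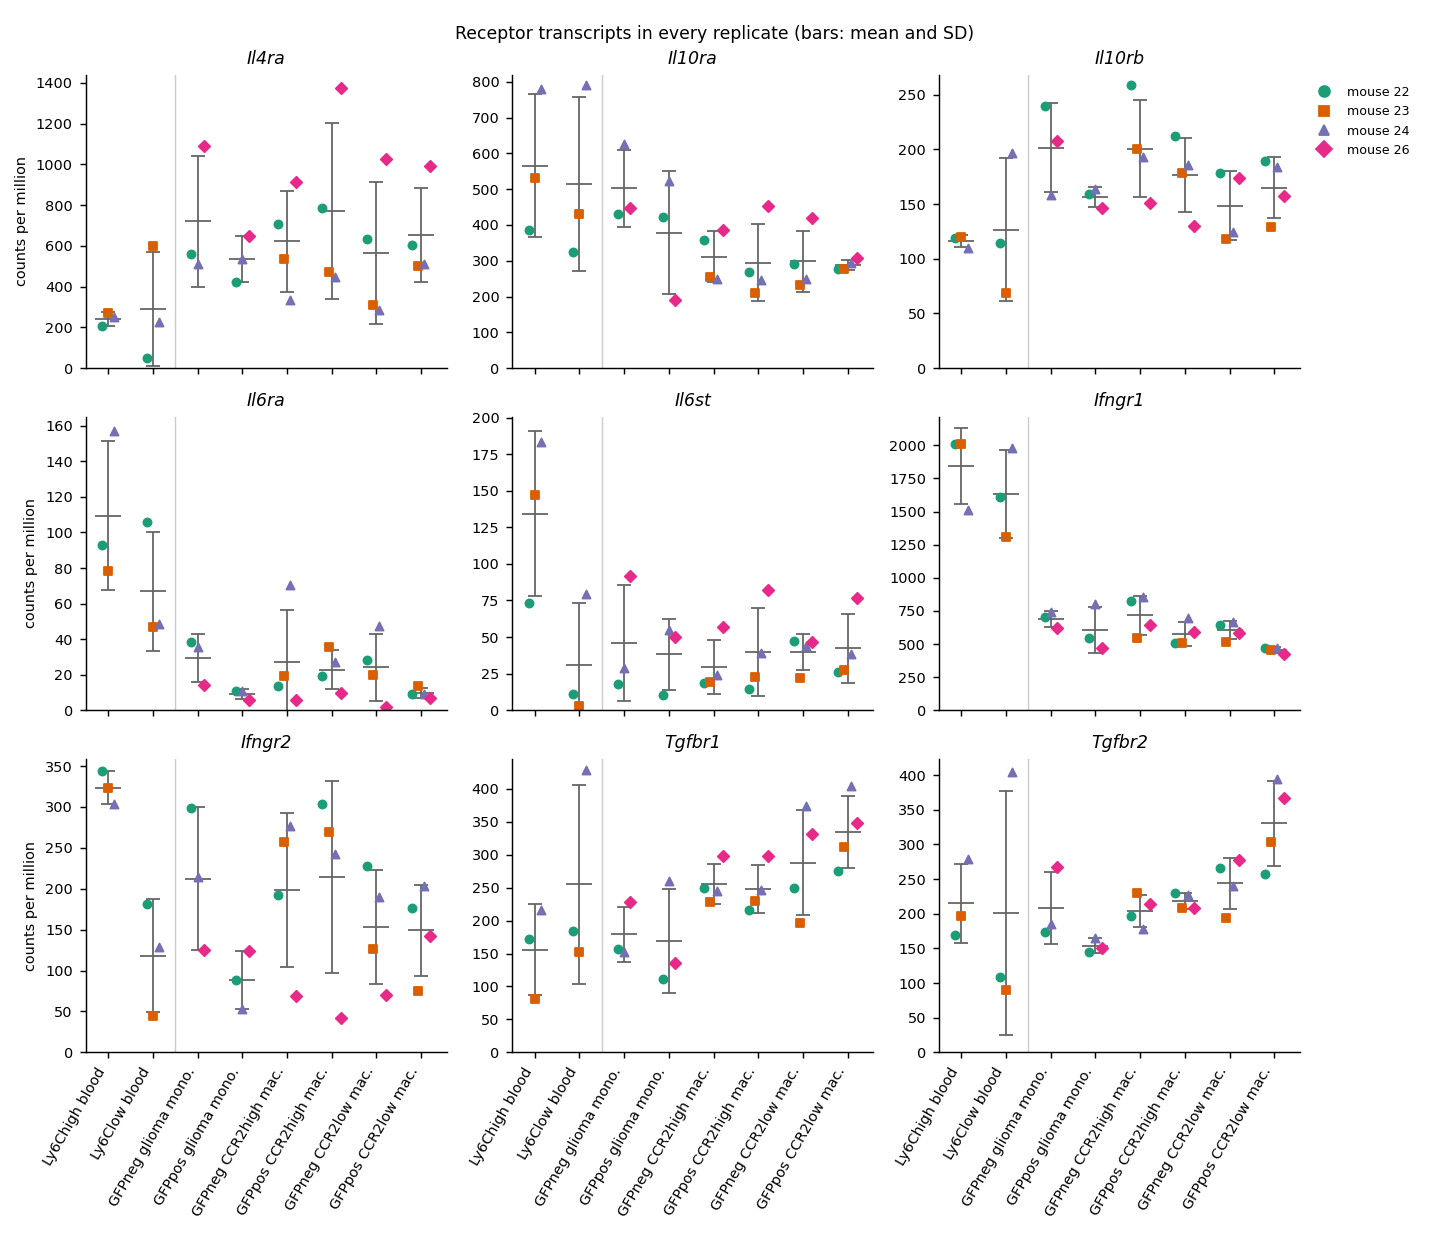
Level in CPM (linear vertical axis) of each of the 9 receptor genes in the 28 replicates of the 8 populations, coloured by mouse, with the mean and SD as bars and a grey line between blood and brain. *Ifngr1* in all 22 brain replicates (422 to 856 CPM) sits below all 6 blood replicates (1310.5 to 2011 CPM), while *Il4ra* of mouse 26 is the highest point in each brain population.

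*Ifngr1* (ENSMUSG00000020009.13, chr10:19591949-19610229, plus strand) encodes the ligand-binding chain of the interferon gamma receptor. It was lower in every brain population than in either blood population. Ly6Chigh monocytes had 2011, 2007 and 1511 CPM in mice 22, 23 and 24, and Ly6Clow monocytes had 1607, 1310.5 and 1976 CPM. GFPneg glioma monocytes had 706, 738 and 619 CPM in mice 22, 24 and 26, and GFPpos glioma monocytes had 544, 806 and 468 CPM. The blood replicates thus stood apart from both glioma monocyte populations, with no overlap.

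GFPneg CCR2high macrophages had 822, 547, 856 and 642 CPM of *Ifngr1* in mice 22, 23, 24 and 26, and GFPpos CCR2high macrophages had 504, 508, 695 and 591 CPM. GFPneg CCR2low macrophages had 644, 515, 669 and 586 CPM, and GFPpos CCR2low macrophages, the lowest population, had 468, 454, 473 and 422 CPM. All 22 brain replicates were below all 6 blood replicates. Against Ly6Chigh monocytes, the log2 fold change ran from -1.36 (SE 0.20, edgeR adjusted p = 2.0e-05) in GFPneg CCR2high macrophages to -2.02 (SE 0.20, edgeR adjusted p = 5.53e-08) in GFPpos CCR2low macrophages. Against Ly6Clow monocytes it was -1.25 (SE 0.22, edgeR adjusted p = 0.000212) in GFPneg glioma monocytes and -1.44 (SE 0.20, edgeR adjusted p = 9.0e-06) in GFPneg CCR2low macrophages. *Ifngr1* was called (Benjamini-Hochberg adjusted p under 0.05) in all 12 pairs of a blood with a brain population and in none of the 15 pairs of brain populations. With spike-in RNA as the scale instead of library composition, the difference from Ly6Clow monocytes turned to 0.13 (SE 0.85) in GFPneg glioma monocytes and 0.38 (SE 0.80) in GFPneg CCR2high macrophages, while the direction against Ly6Chigh monocytes stayed negative in all 6 brain populations, with a call in GFPpos glioma monocytes alone (edgeR adjusted p = 0.0324).

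*Ifngr2* (ENSMUSG00000022965.8, chr16:91547072-91565623, plus strand) encodes the partner chain that brings JAK2 to the complex. In Ly6Chigh monocytes it stood at 344, 323 and 303 CPM in mice 22, 23 and 24. In Ly6Clow monocytes it stood at 181, 44.7 and 129 CPM, all below the Ly6Chigh replicates, but the difference of 1.45 on the log2 scale (SE 0.59) was not called (edgeR adjusted p = 0.144). GFPpos glioma monocytes had 87.9, 53.1 and 124 CPM in mice 22, 24 and 26, against 298, 214 and 125 CPM in GFPneg glioma monocytes.

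The drop of *Ifngr2* from Ly6Chigh to GFPpos glioma monocytes, by 1.87 on the log2 scale (SE 0.60), was its only call among the 28 pairs of populations (edgeR adjusted p = 0.0244). It was not called with mouse as a term in the model (-1.49, edgeR adjusted p = 0.0572), nor in 3 of 6 fits that each left out 1 replicate, those without mouse 22 or 24 of the GFPpos cells or mouse 24 of the Ly6Chigh cells (highest edgeR adjusted p = 0.0913). The GFPpos replicate of mouse 22 summed 2 libraries, in which *Ifngr2* stood at 177 and 33.4 CPM before scaling by composition. The first of them held 6969 genes at 5 reads or more and 8.68% spike-in counts. Spike-ins took 3.59%, 5.16% and 0.612% of the counts in mice 22, 24 and 26 of the GFPpos glioma monocytes. In mice 22, 23, 24 and 26, *Ifngr2* was at 192, 257, 277 and 68.6 CPM in GFPneg CCR2high macrophages, 304, 269.8, 242 and 42.4 CPM in GFPpos CCR2high macrophages, 227, 126, 190.1 and 69.6 CPM in GFPneg CCR2low macrophages and 177, 75.4, 203 and 142 CPM in GFPpos CCR2low macrophages. The 4 macrophage populations overlapped with each other, and mouse 26 was lowest in 3 of the 4. *Ifngr2* was below all blood replicates in 1 of 22 brain replicates, *Ifngr1* in 22 of 22.

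Levels of the 2 chains can be compared per kilobase of exon. *Ifngr1* was at 647 ± 101 CPM per kilobase (SD, n = 3) in Ly6Chigh monocytes against 85.8 ± 5.38 (SD, n = 3) for *Ifngr2*. The log2 ratio of *Ifngr1* to *Ifngr2* per kilobase was 2.90 ± 0.17 (SD, n = 3) in Ly6Chigh monocytes, 4.39 ± 0.86 (SD, n = 3) in Ly6Clow monocytes and 2.10 to 3.23 on average in the brain populations. The ligand-binding chain was thus the more abundant transcript in all 8 populations. This ratio is a description without a test.

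**Figure D2:**
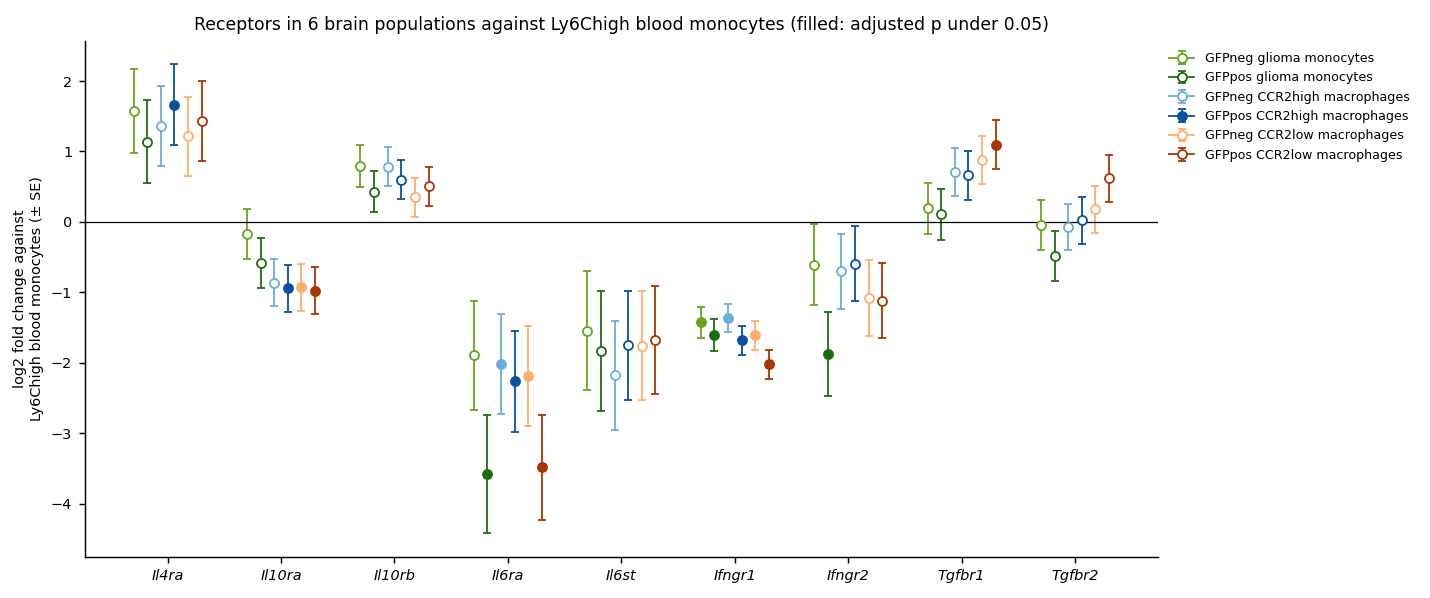
Fitted log2 fold change (vertical axis, bars ± SE) of each receptor in the 6 brain populations against Ly6Chigh blood monocytes, with filled points where the adjusted p was under 0.05. *Ifngr1* is filled in 6 of 6 populations and *Il6ra* in 5 of 6, all below 0, and all 6 points share the same 3 Ly6Chigh replicates.

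*Il4ra* (ENSMUSG00000030748.9, chr7:125552120-125579474, plus strand) encodes the chain that binds IL4 and also serves the IL13 receptor. It stood at 204, 271 and 253 CPM in Ly6Chigh monocytes of mice 22, 23 and 24. GFPpos CCR2high macrophages had 788, 469.6, 446 and 1373 CPM in mice 22, 23, 24 and 26, all above the Ly6Chigh replicates, a rise of 1.67 on the log2 scale (SE 0.57, edgeR adjusted p = 0.0410). This was its only call among the 28 pairs. It was not called with mouse as a term (1.30, edgeR adjusted p = 0.0509) nor in 5 of 7 fits that left out 1 replicate, those without mouse 22 or 26 of the GFPpos cells or any 1 Ly6Chigh replicate, and without mouse 26 the edgeR adjusted p was 0.162.

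The other brain populations had *Il4ra* in the same range. GFPneg glioma monocytes had 560.3, 511 and 1090.4 CPM, and GFPpos glioma monocytes had 421, 534 and 647 CPM, in mice 22, 24 and 26. GFPneg CCR2high macrophages had 706, 537, 334 and 914 CPM, GFPneg CCR2low macrophages 635, 308, 283 and 1028 CPM, and GFPpos CCR2low macrophages 605, 500.5, 511 and 993 CPM in mice 22, 23, 24 and 26. Every brain replicate was above every Ly6Chigh replicate, and the fitted differences of 1.14 to 1.57 on the log2 scale in these 5 populations had edgeR adjusted p of 0.0730 to 0.174. Ly6Clow monocytes spread from 49.1 CPM in mouse 22 over 226 CPM in mouse 24 to 598 CPM in mouse 23, wider than any brain population in relation to its mean. An antisense gene, *Gm44876*, overlaps 571 exon bases of *Il4ra*, and the strand setting of the counting was not given in the sources used here.

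*Il10ra* (ENSMUSG00000032089.16, chr9:45253837-45269149, minus strand) encodes the chain that binds IL10. Blood monocytes and GFPneg glioma monocytes held the higher levels and the macrophages the lower ones. Ly6Chigh monocytes had 385, 532 and 779 CPM, Ly6Clow monocytes 325, 429 and 789.9 CPM in mice 22, 23 and 24. GFPneg glioma monocytes had 429.9, 627 and 448 CPM, and GFPpos glioma monocytes 423, 524 and 189.9 CPM, in mice 22, 24 and 26. The glioma monocytes overlapped with the blood.

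GFPpos CCR2low macrophages had 276, 277, 293 and 307 CPM of *Il10ra* in mice 22, 23, 24 and 26, the narrowest spread of the 8 populations, and lay below all blood replicates. GFPneg CCR2low macrophages had 291, 233, 249 and 419.8 CPM, GFPneg CCR2high macrophages 358, 253, 248 and 387 CPM, and GFPpos CCR2high macrophages 269, 211, 246 and 453 CPM. Mouse 26 of each of these populations, and mouse 22 of the GFPneg CCR2high macrophages, reached into the range of the blood. *Il10ra* fell against Ly6Chigh monocytes by 0.97 (SE 0.33, edgeR adjusted p = 0.0349) in GFPpos CCR2low macrophages, by 0.94 (SE 0.33, edgeR adjusted p = 0.0465) in GFPpos CCR2high macrophages and by 0.93 (SE 0.33, edgeR adjusted p = 0.0492) in GFPneg CCR2low macrophages on the log2 scale. The difference of -0.86 (SE 0.33) in GFPneg CCR2high macrophages was not called (edgeR adjusted p = 0.0738), but was with mouse as a term (-0.89, edgeR adjusted p = 0.0479). All 3 calls were lost without mouse 24 of the Ly6Chigh monocytes (edgeR adjusted p 0.240 to 0.302), and likewise without their mouse 23 or without mouse 22 or 23 of the macrophages. Both calls other than that in GFPpos CCR2low macrophages were also lost without mouse 24 of the macrophages. With DESeq2 size factors in place of TMM all 3 were lost (edgeR adjusted p 0.05007 to 0.06501), as they were with spike-in scaling (edgeR adjusted p 0.564 to 0.799).

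*Il10rb* (ENSMUSG00000022969.13, chr16:91406164-91425834, plus strand) encodes the second IL10 receptor chain, which is shared with receptors for IL22 and interferon lambda. It stood at 119, 120.1 and 110.0 CPM in Ly6Chigh monocytes and at 115, 68.2 and 197 CPM in Ly6Clow monocytes of mice 22, 23 and 24. GFPneg glioma monocytes had 239, 158 and 208 CPM and GFPpos glioma monocytes 159, 164 and 146 CPM in mice 22, 24 and 26. These lay above every Ly6Chigh replicate but overlapped with Ly6Clow monocytes.

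In mice 22, 23, 24 and 26, GFPneg CCR2high macrophages had 259, 201, 193 and 151 CPM of *Il10rb*, GFPpos CCR2high macrophages 212, 178, 186 and 130.2 CPM, GFPneg CCR2low macrophages 178, 118, 124 and 174 CPM, and GFPpos CCR2low macrophages 189.8, 129, 184 and 157 CPM. No pair of populations was called. The lowest edgeR adjusted p, 0.0510, was in GFPneg CCR2high macrophages against Ly6Chigh monocytes at 0.79 on the log2 scale (SE 0.28), and with mouse as a term the same difference was called at 0.79 (edgeR adjusted p = 0.0309). *Il10rb* shares 569 exon bases with *Gm21970* on the same strand, and reads in a stretch shared by 2 genes count for neither in the counting mode used. It lies on chromosome 16 between *Ifnar2* and *Ifnar1*, the chains of the type I interferon receptor, with *Ifngr2* as the next gene of this receptor cluster.

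Per kilobase, the log2 ratio of *Il10ra* to *Il10rb* was 2.35 ± 0.57 (SD, n = 3) in Ly6Chigh monocytes and 2.18 ± 0.58 (SD, n = 3) in Ly6Clow monocytes. It was 1.44 ± 0.60 (SD, n = 3) in GFPneg and 1.28 ± 0.69 (SD, n = 3) in GFPpos glioma monocytes. In macrophages it ran from 0.75 ± 0.49 (SD, n = 4) in GFPneg CCR2high cells to 1.11 ± 0.23 (SD, n = 4) in GFPneg CCR2low cells. As ratios, the mean was 5.08 in Ly6Chigh monocytes and 1.69 in GFPneg CCR2high macrophages. With the longest transcript as length every ratio was lower, at 3.72 and 1.24 for the same populations.

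*Il6ra* (ENSMUSG00000027947.11, chr3:89864059-89913196, minus strand) encodes the chain that binds IL6. Of the 9 receptors it spread widest, with a mean in the highest population 11.9 times that in the lowest. Ly6Chigh monocytes had 92.7, 78.5 and 157 CPM and Ly6Clow monocytes 106, 46.7 and 48.2 CPM in mice 22, 23 and 24. GFPneg glioma monocytes had 38.6, 35.3 and 14.2 CPM and GFPpos glioma monocytes 10.6, 10.9 and 6.01 CPM in mice 22, 24 and 26. Both glioma monocyte populations lay below all blood replicates, and the GFPpos replicates lay below the GFPneg ones.

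In mice 22, 23, 24 and 26, GFPneg CCR2high macrophages had 13.9, 19.1, 70.5 and 5.49 CPM of *Il6ra*, GFPpos CCR2high macrophages 19.2, 35.4, 27.1 and 9.55 CPM, GFPneg CCR2low macrophages 28.1, 19.6, 47.2 and 1.58 CPM, and GFPpos CCR2low macrophages 9.37, 13.5, 9.20 and 6.80 CPM. The lowest of these, 1.58 CPM, was 3 counts. Only mouse 24 of the 2 GFPneg macrophage populations reached above the lowest blood replicate, so 20 of 22 brain replicates were below all blood replicates. *Il6ra* fell against Ly6Chigh monocytes by 3.58 (SE 0.84, edgeR adjusted p = 0.00292) in GFPpos glioma monocytes and by 3.48 (SE 0.74, edgeR adjusted p = 0.00113) in GFPpos CCR2low macrophages on the log2 scale. Both calls held in every fit that left out 1 replicate.

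The falls of *Il6ra* in the other macrophages were less stable. They were 2.26 (SE 0.71, edgeR adjusted p = 0.0251) in GFPpos CCR2high, 2.18 (SE 0.71, edgeR adjusted p = 0.0296) in GFPneg CCR2low and 2.02 (SE 0.71, edgeR adjusted p = 0.0483) in GFPneg CCR2high macrophages. Of 7 fits that each left out 1 replicate, 4, 3 and 1 kept these calls. For GFPneg CCR2high macrophages the edgeR adjusted p was 0.00385 without mouse 24 of that population and 0.199 without mouse 24 of the Ly6Chigh monocytes, and without the latter all 3 calls were lost. The call in GFPneg CCR2low macrophages was also lost without mouse 22, 23 or 26 of that population, that in GFPpos CCR2high macrophages without its mouse 22 or 26, and that in GFPneg CCR2high macrophages without any replicate but its mouse 24. The last was also lost with DESeq2 size factors (edgeR adjusted p = 0.0531), and with spike-in scaling all 3 were (edgeR adjusted p 0.103 to 0.245). In GFPneg glioma monocytes the difference was -1.89 (SE 0.78, edgeR adjusted p = 0.114). *Gm42809*, an antisense gene, overlaps 242 exon bases of *Il6ra*.

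*Il6st* (ENSMUSG00000021756.12, chr13:112464070-112510086, plus strand) encodes the signal chain shared by the receptors of IL6, LIF and oncostatin M. Ly6Chigh monocytes had 73.0, 147 and 183 CPM and Ly6Clow monocytes 10.9, 2.70 and 79.6 CPM in mice 22, 23 and 24. Each Ly6Chigh replicate was above the Ly6Clow replicate of its own mouse, while the populations overlapped as a whole. The difference of 2.10 on the log2 scale (SE 0.86) was not called (edgeR adjusted p = 0.145), but was with mouse as a term (2.57, SE 0.64, edgeR adjusted p = 0.0138).

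GFPneg glioma monocytes had 18.1, 28.9 and 91.6 CPM of *Il6st* and GFPpos glioma monocytes 10.2, 54.5 and 49.9 CPM in mice 22, 24 and 26. In mice 22, 23, 24 and 26, GFPneg CCR2high macrophages had 18.3, 19.1, 23.997 and 56.7 CPM, GFPpos CCR2high macrophages 14.2, 23.02, 39.2 and 82.4 CPM, GFPneg CCR2low macrophages 47.3, 21.7, 43.9 and 46.9 CPM, and GFPpos CCR2low macrophages 26.2, 27.7, 38.2 and 76.9 CPM. In the 3 mice with both tissues every brain replicate was below the Ly6Chigh replicate of the same mouse, and the brain replicates above 73.0 CPM were all of mouse 26, which had no blood. Without mouse in the model no brain population was called, at differences of -1.55 to -2.18 (lowest edgeR adjusted p = 0.0529). Without mouse 26, GFPneg CCR2high (edgeR adjusted p = 0.0315) and GFPpos CCR2high macrophages (edgeR adjusted p = 0.0457) were called. With mouse as a term all 6 were called, from -1.98 (SE 0.56, edgeR adjusted p = 0.0120) in GFPneg CCR2low macrophages to -2.63 (SE 0.57, edgeR adjusted p = 0.00149) in GFPneg CCR2high macrophages.

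The log2 ratio of *Il6ra* to *Il6st* per kilobase was 0.10 ± 0.63 (SD, n = 3) in Ly6Chigh monocytes and 2.59 ± 2.59 (SD, n = 3) in Ly6Clow monocytes. In the brain it averaged -0.07 to -1.66, with SDs from 1.07 to 2.34. Replicate spread was therefore as large as most differences between populations, and both chains were near 12 CPM per kilobase in Ly6Chigh monocytes (12.7 ± 4.85 and 12.1 ± 5.06, SD, n = 3), the lowest of the 9 receptors there. With the longest transcript as length the ratio in Ly6Chigh monocytes was -0.25, so which of the chains was the more abundant there depends on the length used.

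*Tgfbr2* (ENSMUSG00000032440.13, chr9:116084293-116175360, minus strand) binds TGF-beta and phosphorylates *Tgfbr1* (ENSMUSG00000007613.15, chr4:47353222-47414931, plus strand), the kinase that activates SMAD2 and SMAD3. *Tgfbr1* was at 172, 80.2 and 216 CPM in Ly6Chigh monocytes and at 184, 153 and 428 CPM in Ly6Clow monocytes of mice 22, 23 and 24. GFPpos CCR2low macrophages had 275, 312, 404 and 349 CPM in mice 22, 23, 24 and 26, all above the Ly6Chigh replicates, a rise of 1.10 on the log2 scale (SE 0.35, edgeR adjusted p = 0.0239). This only call of *Tgfbr1* among the 28 pairs was kept in 3 of 7 fits that left out 1 replicate, and was lost without mouse 24 or 26 of the GFPpos cells or mouse 22 or 23 of the Ly6Chigh cells (edgeR adjusted p up to 0.219, without mouse 23).

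GFPneg CCR2low macrophages had 249.9, 196, 374 and 331 CPM of *Tgfbr1* in mice 22, 23, 24 and 26, a difference of 0.88 (SE 0.35) from Ly6Chigh monocytes that was not called (edgeR adjusted p = 0.0759) but was with mouse as a term (0.84, edgeR adjusted p = 0.0243). GFPneg CCR2high macrophages had 249.8, 228, 245 and 298 CPM and GFPpos CCR2high macrophages 216, 229.6, 247 and 299 CPM. Glioma monocytes had 157, 153 and 228 CPM (GFPneg) and 112, 259 and 136 CPM (GFPpos) in mice 22, 24 and 26, and overlapped with both blood populations.

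*Tgfbr2* was at 169.7, 197 and 279 CPM in Ly6Chigh monocytes and at 109, 90.2 and 405 CPM in Ly6Clow monocytes of mice 22, 23 and 24. GFPpos CCR2low macrophages again held the highest mean, with 257, 303, 394 and 367 CPM in mice 22, 23, 24 and 26, and overlapped with both blood populations. In mice 22, 24 and 26, *Tgfbr2* was at 173, 185 and 268 CPM in GFPneg and 145, 165 and 151 CPM in GFPpos glioma monocytes. In mice 22, 23, 24 and 26, GFPneg CCR2high macrophages had 196, 231, 177 and 214 CPM, GFPpos CCR2high macrophages 230.4, 208, 227 and 209 CPM, and GFPneg CCR2low macrophages 265, 194, 239.6 and 277 CPM. The GFPpos glioma monocytes all lay below the Ly6Chigh replicates. No pair of populations was called for *Tgfbr2*. Its difference between GFPpos CCR2low macrophages and Ly6Chigh monocytes was 0.62 on the log2 scale (edgeR adjusted p = 0.207). Per kilobase the log2 ratio of *Tgfbr1* to *Tgfbr2* stayed between -0.22 ± 0.68 (SD, n = 3, Ly6Chigh monocytes) and 0.86 ± 0.39 (SD, n = 3, Ly6Clow monocytes), the narrowest range of the 4 receptors compared.

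The comparisons with Ly6Chigh monocytes, which ask how the receptors differ between the circulating cells and those in the glioma-bearing brain, share their 3 control replicates. Of all 11566 genes tested, 13.8%, 17.8% and 20.2% were called in GFPneg glioma monocytes, CCR2high and CCR2low macrophages, and 23.1%, 19.5% and 22.1% in the GFPpos counterparts. In GFPneg glioma monocytes 1 of 9 receptors was lower (2.68% of all genes were) and none higher (11.1%). In GFPneg CCR2high macrophages 2 were lower (5.14%) and none higher (12.7%), and in GFPneg CCR2low macrophages 3 were lower (6.09%) and none higher (14.1%). In GFPpos glioma monocytes 3 were lower (6.07%) and none higher (17%). In GFPpos CCR2high macrophages 3 were lower (5.92%) and 1 higher (13.6%), and in GFPpos CCR2low macrophages 3 were lower (6.76%) and 1 higher (15.3%). Calls among the receptors were mostly of lower levels, where calls over all genes were mostly of higher ones. The median log2 fold change of the 9 receptors was -0.17 in GFPneg glioma monocytes, against 0.12 over all genes, and -0.97 in GFPpos CCR2low macrophages, against 0.17. Receptors whose replicates did not overlap with those of Ly6Chigh monocytes numbered 5, 7 and 5 of 9 in GFPneg glioma monocytes, CCR2high and CCR2low macrophages (35.6%, 35.7% and 35.3% of all genes), and 7, 5 and 7 in the GFPpos counterparts (37.2%, 33.1% and 40.7%).

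Against Ly6Clow monocytes, *Ifngr1* was the 1 receptor called in GFPneg glioma monocytes, GFPneg CCR2high macrophages and GFPneg CCR2low macrophages, lower in each (18.5%, 23.1% and 23.4% of all genes were called, with 5.51%, 8.39% and 8.35% of all genes lower and 13%, 14.7% and 15% higher). Replicates did not overlap for 2, 1 and 1 receptors (27.1%, 26.2% and 24.8% of all genes). With mouse as a term, *Il10rb* was called too in GFPneg CCR2high macrophages (0.71, edgeR adjusted p = 0.0483). Between Ly6Chigh and Ly6Clow monocytes edgeR and DESeq2 called none of the receptors (edgeR called 5.61% of all genes, 1.96% higher and 3.65% lower, and 2527 had an unadjusted p under 0.05, *Il6st* and *Ifngr2* among them), and *Ifngr2* was the only receptor without overlap between the 2 populations (17.8% of all genes). Ly6Clow replicates differed widely, and that of mouse 23 stood apart in quality, with 6475 genes at 5 reads or more and 13.3% spike-in counts, against 9512 and 10882 genes and 2.47% and 0.779% in mice 22 and 24. Its library was also in a separate count table from those of the other blood replicates. The replicate of mouse 23 held the highest *Il4ra* (598 CPM) and the lowest *Il6st* (2.70 CPM) and *Ifngr2* (44.7 CPM) of the Ly6Clow replicates, and its part in the reversal of *Ifngr1* with spike-in scaling was not tested. Without mouse 24 of that population *Il6st* was 4.40 (edgeR adjusted p = 0.00260) and *Tgfbr2* 1.20 (edgeR adjusted p = 0.00262) higher in Ly6Chigh monocytes on the log2 scale, and *Il10rb* (1.17, edgeR adjusted p = 0.00577), *Il6st* (2.78, edgeR adjusted p = 0.0246) and *Tgfbr2* (1.09, edgeR adjusted p = 0.00345) were higher in GFPneg glioma monocytes. Without mouse 23 of the Ly6Clow monocytes, *Il4ra* was higher than there in all 3 GFPneg brain populations, by 1.99 to 2.35 on the log2 scale (edgeR adjusted p 0.013 to 0.023).

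Within the brain, edgeR called none of the 9 receptors between the 3 GFPneg populations. Over all genes 0.182% were called between glioma monocytes and CCR2high macrophages, 1.21% between glioma monocytes and CCR2low macrophages (1.06% higher and 0.147% lower in the monocytes) and 0% between the macrophages, with 622, 978 and 276 genes at an unadjusted p under 0.05. *Il10ra* was the 1 receptor among these, in glioma monocytes against either macrophage population. DESeq2 called 93, 274 and 8 genes and none of the receptors. The smallest edgeR adjusted p of a receptor was 0.493, and 2, 1 and 0 receptors did not overlap (11.7%, 13.8% and 3.13% of all genes). When populations were ordered by their mean, 1 of the 63 pairs of neighbours in the 9 orders was called, *Ifngr1* in Ly6Clow monocytes above GFPneg CCR2high macrophages (edgeR adjusted p = 0.000112), so the order of the levels was otherwise not resolved between neighbours.

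**Figure D3:**
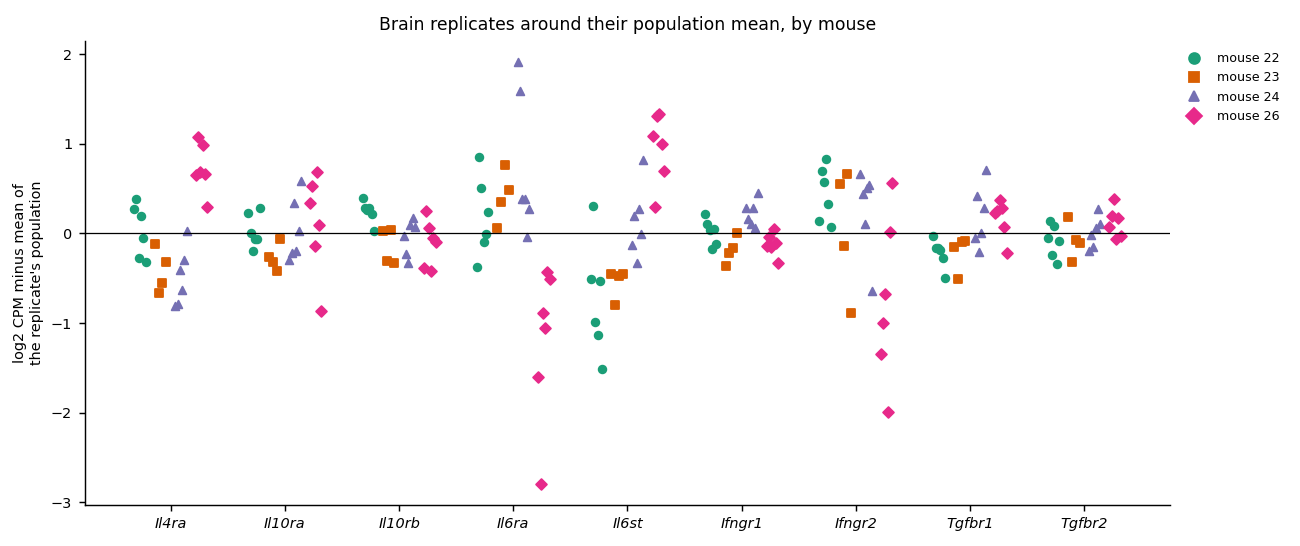
Difference in log2 CPM (vertical axis) of each brain replicate from the mean of its population, for the 9 receptors, coloured by mouse. Mouse 26 lies above 0 for *Il4ra* and *Il6st* and below 0 for *Il6ra* in 6 of 6 populations.

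Within the brain the receptors varied with the mouse. Mouse 26 had the highest *Il4ra* in 6 of 6 brain populations, at 647 to 1373 CPM (median 1011), and the lowest *Il6ra* in 6 of 6, at 1.58 to 14.2 CPM (median 6.40). The 1.58 CPM, in GFPneg CCR2low macrophages, was 3 counts, the limit set for a gene at 0. Mouse 26 also had the highest *Il6st* in 4 of 6 and the lowest *Ifngr2* in 4 of 6. Its median difference from the population mean was 0.67 for *Il4ra*, 1.04 for *Il6st*, -0.97 for *Il6ra* and -0.84 for *Ifngr2* on the log2 scale. Mouse 24 had the highest *Ifngr1* in 6 of 6 populations, with a median difference of 0.22 from the population mean on the log2 scale. In GFPpos CCR2low macrophages it was close to mouse 22 (0.059 and 0.045 above the mean). Mouse 22 had the highest *Il10rb* in 5 of 6 and the lowest *Il6st* in 5 of 6. The populations of a mouse were taken to come from 1 brain and are not separate replicates of the mouse, so these are descriptions without a test. Whether these patterns come from the animal, its tumour or its sort was not tested.

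The GFPpos and GFPneg cells of each brain population were compared to ask whether the receptors differed with the uptake of tumour membrane. No receptor and no other gene was called by edgeR in any of the 3 comparisons (0% of genes each, with 739, 69 and 184 genes at an unadjusted p under 0.05 in glioma monocytes, CCR2high and CCR2low macrophages). DESeq2 called 20, 1 and 5 genes and none of the receptors. Replicates did not overlap for 3, 0 and 1 receptors (13.6%, 1.62% and 2.91% of all genes). In glioma monocytes *Il6ra* was lower in GFPpos cells of 3 of 3 mice, by 1.15 to 1.80 on the log2 scale, with a fitted difference of -1.68 (SE 0.80, edgeR adjusted p = 0.759). In CCR2high macrophages it went the other way in 3 of 4 mice (median 0.59), and in CCR2low macrophages it was lower in 3 of 4. *Ifngr2* (median -1.76), *Il10ra* (-0.26) and *Tgfbr2* (-0.25) were also lower in GFPpos glioma monocytes of 3 of 3 mice. For *Ifngr2*, however, mouse 26 was nearly equal (-0.00762, 124 against 125 CPM), so its drop was seen in mice 22 and 24 alone. For *Il10ra* the smallest difference was -0.025, in mouse 22. *Il10rb* (-0.19) was lower in GFPpos CCR2high macrophages of 4 of 4 mice. *Ifngr1* was lower in GFPpos cells of 4 of 4 mice in CCR2high macrophages (median -0.21) and in 4 of 4 in CCR2low macrophages (median -0.47), where the fitted difference was -0.41 (SE 0.19, edgeR adjusted p = 1). *Tgfbr1* was higher in GFPpos CCR2low macrophages of 4 of 4 mice, by a median of 0.12. How many of all genes ran in 1 direction in every mouse was not counted, so these directions are descriptions without a test. The GFP difference itself did not pass the edgeR test between any 2 brain populations for any receptor (adjusted p rounded to 1 throughout, lowest unadjusted p = 0.0735, for *Tgfbr2*, glioma monocytes against CCR2low macrophages, with 394 genes under 0.05).

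**Figure D4:**
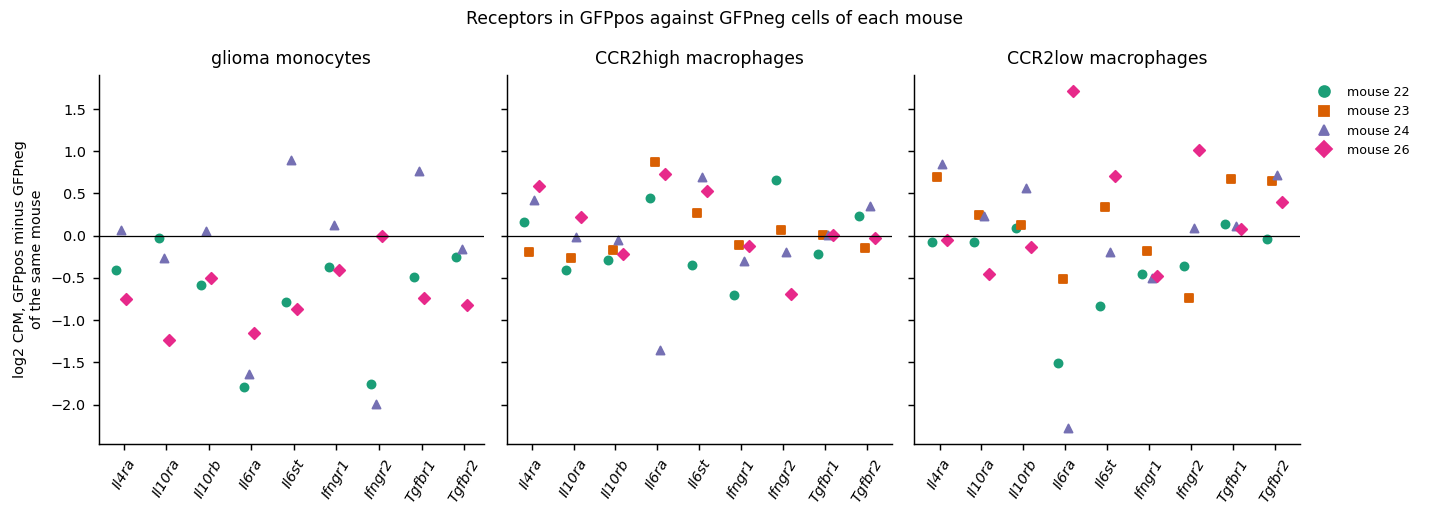
Difference in log2 CPM (vertical axis) between GFPpos and GFPneg cells of the same mouse for each receptor, in 1 panel for each brain population, coloured by mouse. *Il6ra* lies below 0 in 3 of 3 mice in glioma monocytes, and *Ifngr1* below 0 in 4 of 4 mice in both macrophage populations.

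Genes of the same pathways were followed in lists against Ly6Chigh monocytes, where 11.1% to 17% of all genes were higher and 2.68% to 6.76% lower, depending on the brain population, and the median over all genes was 0.12 to 0.22. Of 11 tested receptor partners, 1 to 3 were higher and 1 to 3 lower. *Il27ra*, which pairs with Il6st for IL27, was higher in all 6 brain populations, with means of 17.7 to 40.7 CPM against 4.15 ± 0.69 CPM (SD, n = 3), although Ly6Clow monocytes had 84.2 ± 35.8 CPM (SD, n = 3). *Lifr*, the LIF receptor chain that also pairs with Il6st, was lower in all 6, with means of 9.41 to 16.8 CPM against 71.3 ± 21.9 CPM (SD, n = 3). *Il13ra1*, which pairs with Il4ra, was lower in 4 of 6, with means of 149 to 187 CPM there against 544 ± 112 CPM (SD, n = 3). The median of the list lay between -0.26 and 0.79 on the log2 scale as fitted and between -0.40 and 0.35 when a gene at 0 in Ly6Chigh monocytes was set to the limit of 3 counts per library.

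**Figure D5:**
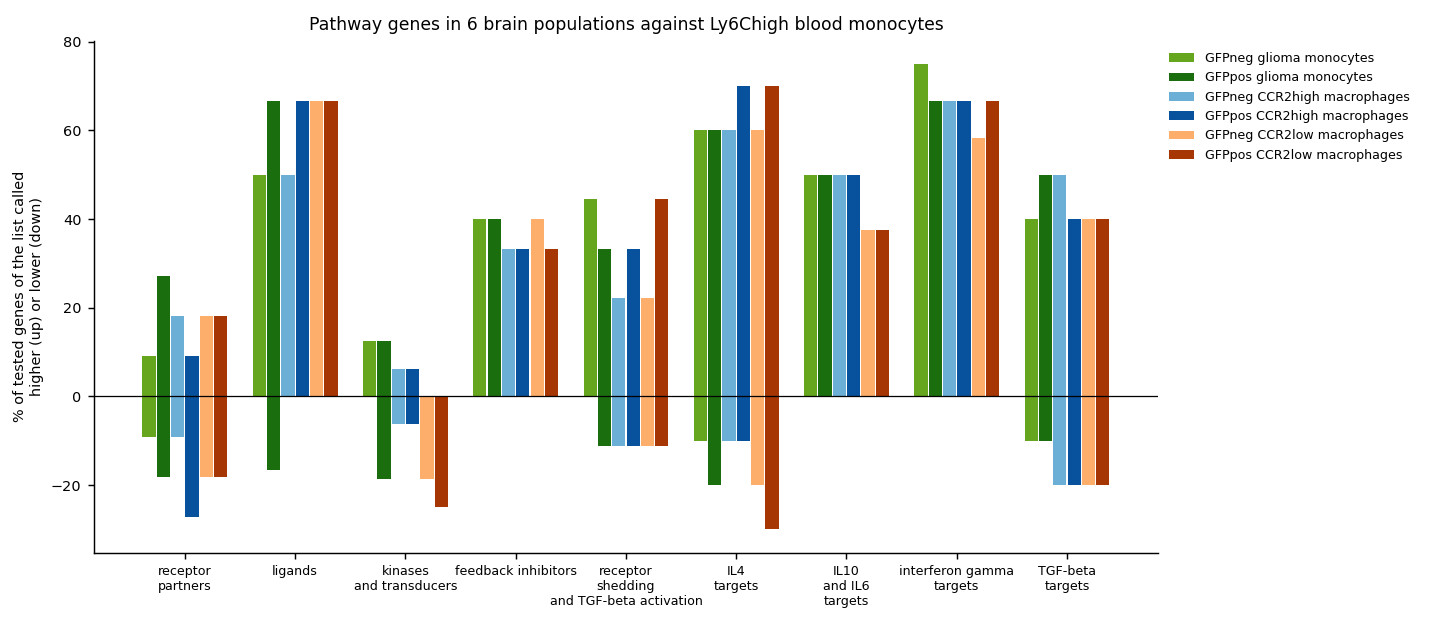
Percentage (vertical axis) of the tested genes of each pathway list called higher (upward bars) or lower (downward bars) in each brain population than in Ly6Chigh blood monocytes. Interferon gamma targets reach 7 to 9 of 12 higher and 0 lower, while kinases and transducers stay at 0 to 2 of 16 higher and 0 to 4 lower.

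Among the ligands, transcripts of *Ifng*, *Il10* and *Il6* were at or near 0 in blood and present in brain. *Ifng* was at 0 in 4 of 6 blood replicates and at most 2.96 CPM in the others, and at 8.37 to 186 CPM (median 51.5) in the brain replicates, at least 17.5-fold higher in GFPneg glioma monocytes and at least 57.0-fold higher in GFPneg CCR2low macrophages than the limit of 3 counts per library in Ly6Chigh monocytes. The bound for *Ifng* in GFPpos glioma monocytes was 53.9-fold, and 27.95-fold without mouse 24. The brain cells were gated on high CD45 and CD11b with Ly6C or F4/80, a gate for myeloid cells that should leave out T cells. *Ifng* is a product of T and NK cells. The 8 markers of these cells summed to 28.7 to 172 CPM in Ly6Chigh monocytes, with *Ncr1* at 0 in every replicate. They summed to 313 to 1986 CPM in the brain, where none was at 0 in every replicate of a population and 7 or 8 of 8 were higher. Ly6Clow monocytes held 859 to 1563 CPM of these markers. Their part in the *Ifng* level was not tested. *Il10* was at 0 in 6 of 6 blood replicates and reached 49.0 CPM in the brain (at least 7.84-fold to 13.1-fold higher in population means). Mouse 26 carried much of this in all 6 brain populations, and without it the bounds for *Il10* were 3.10-fold to 5.66-fold. *Il6* was at least 2.21-fold to 21.3-fold higher, and without mouse 24 its bound went from 9.91-fold to 4.48-fold in GFPneg CCR2high macrophages and from 19.8-fold to 9.504-fold in GFPpos glioma monocytes. *Il4* was at 0 in 7 of 22 brain replicates, with 13.9 CPM at most, and *Il13* in 17 of 22. Of 6 tested ligands 3 or 4 were higher in each brain population, with a median of 2.07 to 2.93 on the log2 scale with genes at 0 set to their limit, and the 1 lower call was *Tgfb1* in GFPpos glioma monocytes, at 43.7 ± 38.5 CPM (SD, n = 3) against 295 ± 35.1 CPM (SD, n = 3).

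Downstream of the receptors, 16 kinases and transducers gave 0 to 2 higher and 0 to 4 lower, with a median of -0.78 to -0.16 on the log2 scale. *Jak2* was higher in 4 of 6 brain populations, at means of 32.7 to 49.3 CPM against 10.04 ± 1.97 CPM (SD, n = 3). *Stat5b* was lower in 5 of 6, at 38.6 to 66.4 CPM against 180.3 ± 40.1 CPM (SD, n = 3), and *Stat6*, the factor that Il4ra activates, was lower in 3 of 6, at 299 to 319.9 CPM against 617 ± 21.95 CPM (SD, n = 3). Of 15 tested feedback inhibitors 5 or 6 were higher and 0 lower (median 1.13 to 2.39), among them *Socs2*, *Socs3*, *Cish*, *Ski* and *Pmepa1* in all 6 populations, with *Cish* at 92.3 to 192 CPM against 1.35 ± 1.48 CPM (SD, n = 3). Of 9 tested genes for receptor shedding and TGF-beta activation 2 to 4 were higher and 0 or 1 lower (median 0.43 to 1.21). The lower gene was *Nrros*, which tethers latent TGF-beta, in 5 of 6 populations at 419 to 549 CPM against 1122 ± 190.1 CPM (SD, n = 3).

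Target genes of the cytokines gave more higher than lower calls in the brain. Of 12 interferon gamma targets 7 to 9 were higher and 0 lower (median 1.60 to 2.54), among them *Cxcl9*, a T cell chemokine, at means of 294 to 686 CPM against 4.25 ± 4.40 CPM (SD, n = 3). Of 10 IL4 targets 6 or 7 were higher and 1 to 3 lower (median 3.13 to 4.795), with *Arg1*, an arginase, at 597 to 1137 CPM against 0 in every Ly6Chigh replicate (at least 340.0-fold to 647-fold higher, and 217-fold to 469.7-fold without mouse 26, with 1137 ± 1312 CPM, SD, n = 3, in GFPneg glioma monocytes), and *Chil3*, a chitinase-like protein, lower in 5 of 6 at 38.5 to 324 CPM against 2778 ± 2370 CPM (SD, n = 3). Of 8 IL10 and IL6 targets 3 or 4 were higher and 0 lower (median 0.63 to 1.94), with *Il1rn*, the IL1 receptor antagonist, at 491 to 2092 CPM against 42.8 ± 10.3 CPM (SD, n = 3). Of 10 TGF-beta targets 4 or 5 were higher and 1 or 2 lower (median 1.01 to 2.18), with *Cdkn1a*, a cell cycle inhibitor, higher in all 6 populations at 367 to 1371 CPM against 56.5 ± 17.5 CPM (SD, n = 3) and *Klf10*, a TGF-beta-induced factor, lower in all 6 at 72.1 to 148 CPM against 344 ± 95.3 CPM (SD, n = 3). These lists were chosen for the known pathways and hold genes that other signals also regulate.

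The genes whose log2 CPM followed a receptor most closely were taken among the 8134 genes whose mean reached 10 CPM. For *Ifngr1* they were *Degs1* (Pearson's r = 0.94 over 28 replicates, 0.57 over the 22 brain replicates), *Fam49a* (0.94 and 0.66) and *Nfam1* (0.93 and 0.67). For *Ifngr2* they were *Csf2ra* (0.94 and 0.97), *Xbp1* (0.94 and 0.95) and *Rnpep* (0.93 and 0.94), so its likeness was as high within the brain as over all replicates. For *Il4ra* they were *Gdf3* (0.89 and 0.70), *Adam8* (0.88 and 0.76) and *Tcirg1* (0.87 and 0.89). The other receptors had lower best values, from 0.70 for *Tgfbr1* with *Ints2* to 0.88 for *Il10ra* with *Prkx*. Among the receptors themselves, *Tgfbr1* and *Tgfbr2* followed each other (0.68 and 0.78), and *Il4ra* and *Il6ra* were opposed (-0.74 and -0.64). The chains *Ifngr1* and *Ifngr2* (0.21 and 0.09), *Il6ra* and *Il6st* (0.00 and -0.36) and *Il10ra* and *Il10rb* (-0.14 and 0.11) showed little likeness. The points share mice and the difference between blood and brain, and the correlations are given as descriptions.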

How the data were processed

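Per the methods and labels, the authors sorted the cells, made cDNA libraries with ERCC spike-in RNA from little input, aligned reads with STAR, removed duplicates with Picard 1.8.4 and counted reads per gene with HTSeq (intersection-strict) on the GRCm38.p3 annotation, then worked in R 3.2.3 with DESeq2. The deposited count tables held whole-number counts, not normalized, for 30 libraries. The second libraries of GFPpos glioma monocytes of mouse 22 and of Ly6Clow monocytes of mouse 23 were in a separate table from all others. Removing duplicates can compress the counts of abundant genes, and the strand setting is not given in the sources used here. Reads on no gene were 6.28% to 17.4% and ambiguous reads 1.58% to 1.90% of the reads, and both were left out. Spike-ins (92 sequences) took 0.284% to 13.3% of the counts and were left out of library sizes.

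A library passed with at least 6000 genes at 5 reads or more. The first library of Ly6Clow monocytes of mouse 23 failed and was not used in any comparison, and the 2 passing libraries of GFPpos glioma monocytes of mouse 22 were summed, which left 28 replicates of 4 mice. Counts were scaled by TMM and fitted for all 8 populations at once with the quasi-likelihood model of edgeR 4.0.16 (robust) in R 4.3.3, after filterByExpr, which kept 11566 genes. Calls rest on adjusted p (Benjamini-Hochberg, over all genes tested) under 0.05, with a prior count of 2 for log2 CPM. The script was tested on simulated data. The limit for a gene at 0 was 3 counts per library, which covers counting error only.

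The mouse number was read from the sample titles, and samples of the same number were taken to come from the same animal. Deviations from population means over 2000 genes correlated with a median of 0.215 (-0.0527 to 0.730) in 86 pairs of replicates of the same mouse and -0.0450 in 256 pairs of different mice. The fit without mouse was the main one, and the fit with mouse as a block is given where it changed a call.

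The receptors and the gene lists were chosen with earlier results of these data known. Of each pathway list, genes were eligible to be named, up to 3 in each direction and comparison, by the largest fitted change among called genes with non-overlapping replicates and a mean of at least 10 CPM in 1 population. *Socs3*, *Ski*, *Il4* and *Il13*, which fall outside that rule, were chosen after their values were seen. Likeness was Pearson's r of log2 CPM, with the 3 highest genes for each receptor. Alternatives were DESeq2 1.42.0 (test and size factors), spike-in scaling, other filters, the compared populations alone, single libraries and leaving out each replicate. Leaving out replicates from the fold bounds of genes at 0 in Ly6Chigh monocytes was chosen after seeing the data. Lengths and positions came from GENCODE vM21 on GRCm38, and promoter sequences from RefSeq.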

Additional observations from a re-analysis of the deposited data

Results flagged for a closer look

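*Il6st* had 1 replicate far from the other 3 in a pair of populations. In GFPneg CCR2high macrophages mouse 26 stood at 56.7 CPM, against 18.3 to 23.997 CPM in the other mice, and in GFPneg CCR2low macrophages mouse 23 stood at 21.7 CPM, against 43.9 to 47.3 CPM. The gap took 0.852 and 0.867 of the range, above the critical value of 0.829 for 4 samples. These were 2 of 36 groups of 4 replicates checked, and chance passes about 1 in 20 groups.

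The library of Ly6Clow monocytes of mouse 23 that failed the quality rule still held 6 of the 9 receptors above 3 counts, which no comparison used. *Ifngr1* was at 839 CPM (not scaled by composition) there and at 1263 in the library used of the same mouse and population. *Il10ra* was at 280.2 and 414, *Il6st* at 123 and 2.60, and *Ifngr2* at 164 and 43.1. *Il4ra*, which was at 576 CPM in the library used, was at 0 there, as were *Tgfbr1* and *Tgfbr2*.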

How the results depend on the processing

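Of 799 alternative values for single receptors, 667 kept direction and side of the threshold, 58 gained a call, 72 lost one and 2 reversed. With mouse as a replicate block, called receptors were 1 for Ly6Chigh against Ly6Clow monocytes, 2 for GFPneg glioma monocytes, 5 for GFPneg CCR2high and 5 for GFPneg CCR2low macrophages against Ly6Chigh monocytes, and 2 for GFPneg CCR2high macrophages against Ly6Clow monocytes. With spike-in scaling they were 0 in GFPneg glioma monocytes, GFPneg CCR2high, GFPneg CCR2low and GFPpos CCR2high macrophages and 1 in GFPpos CCR2low macrophages against Ly6Chigh monocytes, and 8 instead of 25 over all 28 pairs. *Ifngr1* reversed there against Ly6Clow monocytes, to 0.13 in GFPneg glioma monocytes and 0.38 in GFPneg CCR2high macrophages, where the median of all genes was 1.70 and 1.87, and the cause was not tested. Of genes called with that scaling, 52.4% (GFPpos glioma monocytes against Ly6Chigh monocytes) to 99.2% (GFPneg glioma monocytes against Ly6Clow monocytes) were higher in brain.

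DESeq2 called 3 receptors in GFPneg glioma monocytes and 4 in GFPneg CCR2high macrophages against Ly6Chigh monocytes, and 2 in the latter against Ly6Clow monocytes. A filter of 1 count in total left 1 call in GFPneg CCR2high and 2 in GFPpos CCR2high macrophages, one of 10 counts in every replicate left 1 in GFPneg CCR2low macrophages, and the first library of GFPpos glioma monocytes of mouse 22 alone left 1 in GFPneg CCR2high macrophages. A fit of only the compared populations gave 4 in GFPneg glioma monocytes, 6 in GFPneg CCR2high, 6 in GFPneg CCR2low and 7 in GFPpos CCR2low macrophages against Ly6Chigh monocytes, and 0 in GFPneg glioma monocytes against Ly6Clow monocytes. The *Il10ra* calls were lost with DESeq2 size factors (3 of 3), and those of *Il4ra* and *Ifngr2* with the filter of 1 count in total and with the first library alone.

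Leaving out 1 replicate at a time gave 0 to 2 called receptors between the blood populations. Against Ly6Chigh monocytes it gave 1 in GFPneg glioma monocytes, 1 to 3 in GFPneg CCR2high, 1 to 3 in GFPneg CCR2low, 1 to 3 in GFPpos CCR2high and 2 to 3 in GFPpos CCR2low macrophages, and 2 to 3 in GFPpos glioma monocytes. Against Ly6Clow monocytes it gave 1 to 4, 1 to 3 and 1 to 3, and 0 in all comparisons within the brain. Over all 28 pairs the count ran from 17 to 48. With 3 or 4 replicates, receptors at low counts such as *Il6ra* and *Il6st* had standard errors near 0.71 and 0.78 on the log2 scale, and *Ifngr1* 0.20.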

Other observations

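The 2 libraries of GFPpos glioma monocytes of mouse 22, which were taken from their titles to come from the same sample, differed in several receptors. *Ifngr1* was at 418 and 490.4 CPM (not scaled by composition) in the first and second library and *Tgfbr1* at 98.8 and 95.5. *Il4ra* was at 155 and 450.0, *Ifngr2* at 177 and 33.4, *Tgfbr2* at 256 and 70.4, and *Il6st* at 0 and 12.5.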
